A study of Homo sapiens with 12 samples.

Results

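The genes of tight and gap junctions were examined in TIGK cells, an established keratinocyte line from human gingiva that was immortalized by hTERT. Members were picked by gene name, with earlier results of these data known. They were the protein-coding genes named as claudins (CLDN), connexins (GJA to GJE), TJP scaffolds, OCLN, MARVELD1 to MARVELD3, F11R, CGN, or pannexins (PANX1 to PANX3). They numbered 57 of the 58735 genes in the count table, and 52 of them are described here as the members. There were 24 claudins, 17 connexins, 4 MARVEL proteins (OCLN among them), 3 scaffold proteins, 3 pannexins, and the junctional adhesion molecule F11R. All cells were in DMEM-SILAC Flex medium with 48 mM glucose, whose listed additions include L-lysine but no arginine. The Arg group also received 500 μM L-Arginine, the control group did not, and both were harvested after 24 or 48 h, with 3 libraries (A, B, and C) in each of the 4 groups. RNA was sequenced from all cells of a well, so fewer cells of a type and less RNA per cell cannot be told apart. The 12 libraries held 16542243 to 19040964 counts, and all came from this single line in plate culture.

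Tight junctions seal the space between neighboring epithelial cells. Claudins form the seal and set which ions pass, occludin and other MARVEL proteins travel with them, and TJP scaffolds and cingulin (CGN) bind them to the actin cytoskeleton. Connexins assemble into gap junctions, channels that pass small molecules from cell to cell, and keratinocytes change which connexins they make as they mature. Pannexins resemble connexins in shape but mostly open to the outside of the cell.

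The basal keratins that define keratinocytes were abundant in every library, with KRT5 at 24097 to 31669 CPM, the read count scaled to the size of its library. Keratins of simple epithelium were also present, with KRT19 at 1717 to 5790 CPM. Endothelial markers stayed at or below 4.90 CPM and leukocyte markers at or below 3.27 CPM in each library. The fibroblast genes COL1A2, COL3A1, and PDGFRA stayed at or below 0.269 CPM, although COL1A1 and DCN reached 27.0 and 76.1 CPM. Of the melanocyte markers, TYR had no count in any library, and PMEL, MLANA, and DCT stayed at or below 2.84 CPM. MITF, however, lay at 14.5 to 27.8 CPM. Control library B at 48 h stood apart from its group before any test. Its counts differed from those of A and C by a chi-square per degree of freedom of 20.9 and 23.9, against 3.66 between A and C. The latter was the lowest value of any pair, and pairs within the other groups had 4.52 to 12.5. Its 20 markers of keratinocyte differentiation summed to 4723 CPM, against 2151 CPM in A and 1985 CPM in C. Most of the sum in B was KRT13 at 3455 CPM and KRT10 at 965 CPM. Some markers, such as SPRR1A and SPRR3, were instead lower in B than in A or C. Counts of calls that use control library B at 48 h are therefore also given without it, with the values of the genes called.

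In TIGK cells, every MARVEL and scaffold gene described and F11R had counts in each library, but only part of the claudins, connexins, and pannexins did. Levels were compared between genes as CPM per kilobase of exonic length, averaged over the 12 libraries. The connexins GJB5 and GJA1 were at 42.6 and 38.8 CPM per kb, above all other members described. F11R, an adhesion molecule that helps place tight junctions, came next at 25.4 CPM per kb, although some of its 48 h libraries overlapped those of both connexins. CLDN7 at 23.5, PANX1 at 20.6, CLDN1 at 20.2, MARVELD1 at 19.8, and CLDN4 at 17.7 CPM per kb formed a closely spaced group. Their libraries overlapped, so the order within that group was not separated by the spread. TJP1, the best known scaffold of the tight junction, was at 12.4 and GJB2 at 10.9 CPM per kb. The order of these 10 averages was the same when libraries were scaled by size only, but it was not the order in every group. With Arg, GJA1 had a higher mean than GJB5, at 35.8 against 34.5 CPM per kb at 24 h and 42.2 against 32.0 CPM per kb at 48 h.

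**Figure D1:**
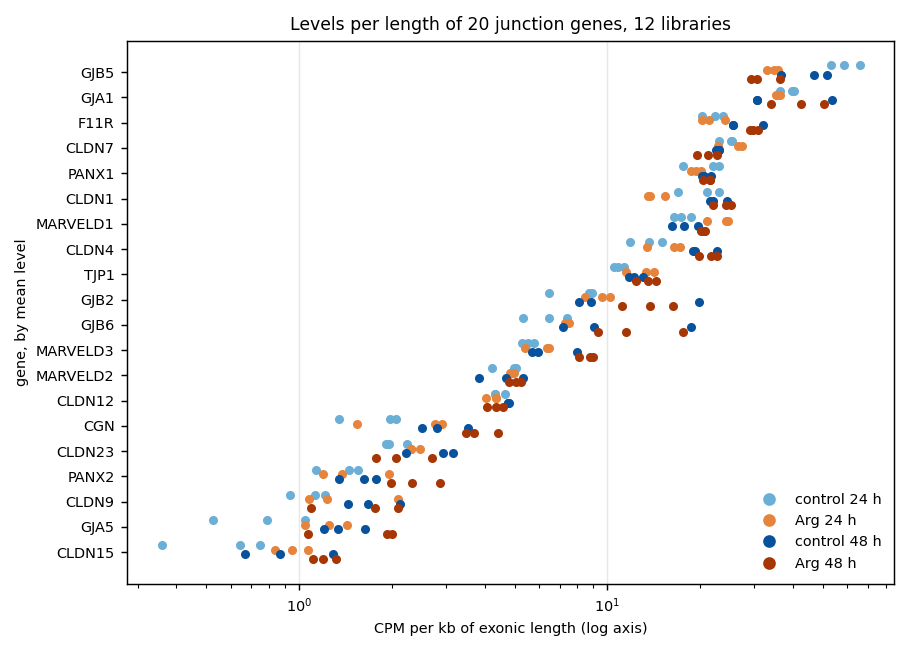
The level per length of 20 junction genes, the leading ones of those described, as CPM per kb of exonic length on a log axis, with 1 point per library and 3 points for each of the 4 groups. The connexins GJB5 and GJA1 have the highest means of the genes shown, 42.6 and 38.8 CPM per kb, although some of their 48 h libraries overlap those of F11R. The lowest of the 20, CLDN15, is at 0.920 CPM per kb.

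Below these genes, GJB6 was at 9.56 and MARVELD3 at 6.70 CPM per kb. The tricellular junction protein MARVELD2 and CLDN12 were at 4.83 and 4.45 CPM per kb. CGN, CLDN23, PANX2, CLDN9, and GJA5 lay between 1.27 and 2.75 CPM per kb. Of the 52 members, 28 had enough counts for a test in at least 1 comparison with every library kept, and 26 in all 5.

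Among the 24 members not tested in these 5 comparisons, 9 had no count in any library, which allows up to 0.181 CPM in the shallowest library. These were GJB1, GJB7, GJA9, GJD2, GJD4, GJE1, CLDN22, CLDN25, and PANX3. The other 15 had 1 to 40 counts over all libraries. They included CLDN5, the claudin of blood vessel lining, with 12 counts, CLDN2 with 4 counts, CLDN3 with 29 counts, and the vascular connexin GJA4 with 21 counts. The rest of them were CLDN6, CLDN10, CLDN14, CLDN17, CLDN18, CLDN19, CLDN20, CLDN24, CLDN34, GJA10, and GJC3.

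The first comparison asked which junction genes differed when Arg was added for 24 h. The connexin GJB5 and the claudin CLDN1 fell with Arg, and MARVELD1 rose. These were 3 of 27 members tested, or 11.1%, at an adjusted p under 0.05, whereas 6.63% of all 14279 genes tested passed, 2.79% as higher and 3.84% as lower. The adjusted p is from edgeR's quasi-likelihood test with Benjamini-Hochberg adjustment over all genes tested, here and throughout. The median log2 fold change of the 27 members was 0.14, and that of all genes was 0.00. Arg and control libraries did not overlap in 7 members, or 25.9%, beside 26.2% of all genes. Thus the count of members that separated was near the background.

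GJB5 encodes a connexin of stratified epithelium, and its gene sits at chr1:34755047-34758512 (GRCh38, plus strand). It measured 79.1, 71.8, and 89.1 CPM in control libraries A, B, and C and 48.3, 44.7, and 47.1 CPM in the Arg libraries. All 3 Arg libraries lay below all controls, and means were 46.7 ± 1.83 against 80.0 ± 8.66 CPM (SD, n = 3). The log2 fold change was -0.78 (SE 0.0960, adjusted p = 9.67e-05), and GJB5 ranked 36 of all genes by p. It passed with any 1 of the 6 libraries left out. The library kit and counting are not stated to keep strand, so reads of GJB5 cannot be told apart from any reads of the opposite strand over its exons.

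CLDN1, the claudin required for the water barrier of skin, is on chromosome 3 at chr3:190305701-190322475 (minus strand). Control libraries had 62.0, 77.0, and 84.3 CPM, and Arg libraries had 49.6, 50.3, and 56.3 CPM. All Arg libraries were lower than all controls, and the control spread of 11.4 CPM (SD, n = 3) exceeded the Arg spread of 3.71 CPM. The log2 fold change was -0.52 (SE 0.108, adjusted p = 0.00774). The other abundant claudins did not pass. CLDN4 had means of 73.8 ± 9.28 CPM with Arg and 63.5 ± 7.39 CPM in control (adjusted p = 0.238), and CLDN7 had 63.7 ± 5.92 and 61.02 ± 3.20 CPM (adjusted p = 0.746). Reads of CLDN7 can also come from ELP5, which overlaps it on the opposite strand and had 13651 counts, close to the 12744 counts of CLDN7.

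MARVELD1, a MARVEL-domain membrane protein, is on chromosome 10 at chr10:97713173-97718152 (plus strand). It had 55.8, 58.3, and 63.0 CPM in control and 71.2, 81.7, and 83.1 CPM with Arg. The groups were separate, and the log2 fold change was 0.41 (SE 0.0919, adjusted p = 0.0115). Occludin (OCLN) had means of 3.84 ± 1.01 CPM with Arg and 2.74 ± 0.994 CPM in control, with an adjusted p of 0.355. MARVELD2 and MARVELD3 had log2 fold changes of 0.04 and 0.13, neither past the threshold.

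The sequences before the start sites of CLDN1 and MARVELD1 are shown because these were the called members at 24 h with an entry in the RefSeq promoter table (GRCh38.p14), which held 37 of the 52 members and not GJB5. Each is 250 bases that end at the base before the start, written 5′ to 3′ on the strand of the gene. Capitals mark matches on either strand to GCGTG, the core bound by the aryl hydrocarbon receptor, and to the GC box GGGCGG. The CLDN1 window is chr3:190322447-190322696 (minus strand) and the MARVELD1 window is chr10:97713480-97713729 (plus strand).
CLDN1: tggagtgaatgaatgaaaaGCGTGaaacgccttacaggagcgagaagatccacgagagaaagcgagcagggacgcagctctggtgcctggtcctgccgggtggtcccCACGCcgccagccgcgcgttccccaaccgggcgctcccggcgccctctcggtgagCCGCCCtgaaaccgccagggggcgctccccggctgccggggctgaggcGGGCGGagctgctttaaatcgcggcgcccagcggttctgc
MARVELD1: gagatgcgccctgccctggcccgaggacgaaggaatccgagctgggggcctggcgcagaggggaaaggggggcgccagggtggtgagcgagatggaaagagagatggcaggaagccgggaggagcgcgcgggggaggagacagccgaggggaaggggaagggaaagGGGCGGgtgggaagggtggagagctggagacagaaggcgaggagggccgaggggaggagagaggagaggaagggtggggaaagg
The MARVELD1 window lies within the span the files give that gene, with 45 bases in an exon of a transcript for which GENCODE defines no coding sequence, and 29 bases of the CLDN1 window lie within the span of CLDN1. The span of CLDN16, another member, begins on the opposite strand at chr3:190322541, so the later-numbered part of the CLDN1 window lies within CLDN16. The CLDN1 window held 2 GCGTG and 2 GC box matches, and the MARVELD1 window held 1 GC box match and no GCGTG. Of all 35116 promoter windows of that length, 32.2% held GCGTG and 42.6% held the GC box. Both windows had a GC content of 68.8%, against a median of 58% over all windows. Among the 37 members with an entry, 12 (32.4%) held GCGTG and 19 (51.4%) held the GC box. Members were counted by gene and the background by window, so any member with more than 1 window could count through either. The paired percentages here and below are therefore not strictly alike. The AP-1 motif TGANTCA was in CLDN2, CLDN4, CLDN15, CLDN16, and GJA1, or 13.5% of members beside 6.57% of all windows. CAGGTG, an E-box bound by Snail factors, was in 9 members (24.3%) beside 17.5% of all windows, and in neither printed window. No member held the Grainyhead motif AACCGGTT, which was in 0.117% of all windows.

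Several further members had an unadjusted p under 0.05 at 24 h but missed the adjusted threshold. TJP1 measured 122, 128, and 118 CPM in control and 151, 159, and 129 CPM with Arg. These groups did not overlap, with a log2 fold change of 0.25 (SE 0.0879, adjusted p = 0.0938). GJA3, best known as a lens connexin, had 4.22, 3.50, and 3.18 CPM in control and 1.74, 2.10, and 2.58 CPM with Arg. Its groups were also separate, with a log2 fold change of -0.76 (SE 0.275, adjusted p = 0.103). GJA5, a connexin of arteries and atria, had 2.60, 3.44, and 1.74 CPM in control and 4.72, 4.13, and 3.44 CPM with Arg. The groups overlapped, and the adjusted p was 0.171. In all, 6 members (22.2%) had an unadjusted p under 0.05, beside 22.8% of all genes.

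**Figure D2:**
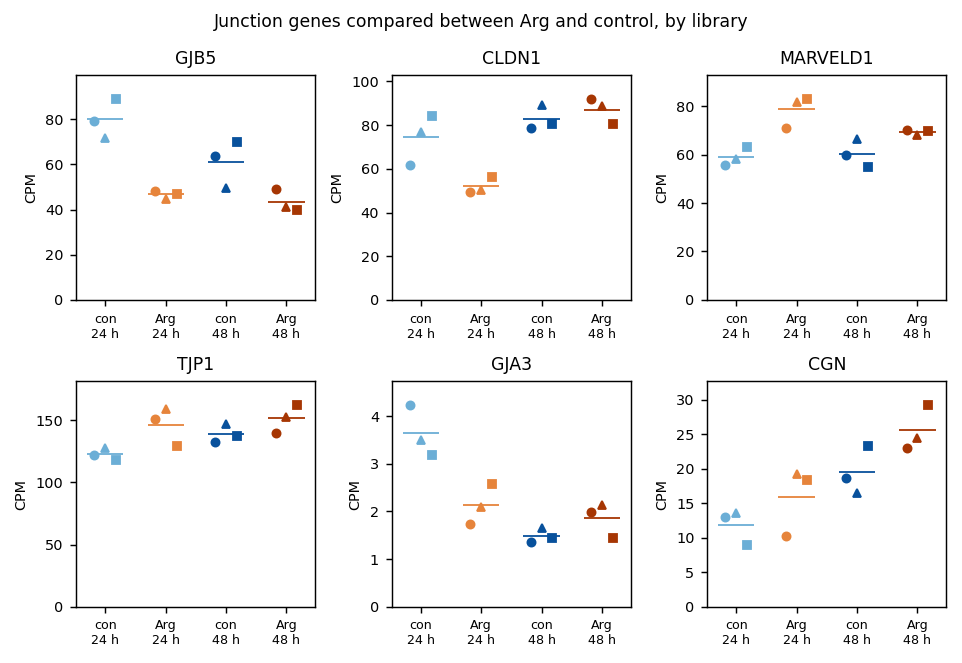
CPM of GJB5, CLDN1, MARVELD1, TJP1, GJA3, and CGN in each library, with circles, triangles, and squares for replicates A, B, and C and a line at each group mean. At 24 h the Arg libraries of GJB5 lie at 44.7 to 48.3 CPM, below the control libraries at 71.8 to 89.1 CPM, and those of MARVELD1 lie above control.

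These calls differed in how much they rested on single libraries. Leaving out 1 library gave between 1 and 4 called members, beside 2.45 to 10.4% of all genes. The share of all genes was 2.45 to 2.98% without control library A or C or Arg library B or C, against 6.63% with every library. Without Arg library B, GJB5 alone passed. Without control library A, 2 passed, CLDN1 and GJB5, and without control library C, 2 passed, GJB5 and MARVELD1. Without Arg library C, MARVELD1 missed the threshold. The highest adjusted p in these fits was 0.0519 for CLDN1 and 0.0820 for MARVELD1. The direction was the same in each fit.

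Other features of the libraries moved with Arg at 24 h. Mitochondrial counts were 0.624 to 0.802% with Arg and 1.20 to 1.30% in control. The 5 keratins and adhesion genes of simple epithelium summed to 5398 to 6216 CPM with Arg and 3308 to 4342 CPM in control. Of the 5, 2 rose, beside 2.79% of all genes, namely KRT8 and KRT19 (log2 fold changes 0.55 and 0.74, adjusted p = 0.00118 and 0.00128). None of the 5 was at 0 in any 24 h library. Melanocyte markers, with TYR at 0, summed to 16.2 to 19.0 CPM with Arg and 21.7 to 25.9 CPM in control. Sums overlapped for the 20 differentiation markers (1165 to 1748 and 885 to 1459 CPM) and for the 7 fibroblast markers (30.2 to 41.4 and 34.2 to 54.4 CPM). Single markers that fell with Arg were the fibroblast gene DCN (log2 fold change -0.70, adjusted p = 0.0294), the melanocyte gene MITF (-0.49, adjusted p = 0.0280), and the basal keratinocyte integrin ITGA6 (-0.40, adjusted p = 0.00840). Other markers went the other way, with PMEL at 0.36 (adjusted p = 0.629). Of the 8 basal markers, 6 had positive log2 fold changes and 1 passed as lower, beside 3.84% of all genes. Sums of the basal markers overlapped, at 38584 to 45887 CPM with Arg and 33934 to 39270 CPM in control. Their part in the junction gene differences was not tested.

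The second comparison asked the same at 48 h. No junction gene passed an adjusted p of 0.05 in edgeR (0 of 27 tested), beside 0.117% of all genes, and 5 members (18.5%) had an unadjusted p under 0.05, beside 13.4% of all genes. DESeq2 called 1 member, GJB5. The 5 members were GJB5, lower with Arg, and MARVELD3, PANX2, CGN, and MARVELD1, higher with Arg. The median log2 fold change of the 27 members was 0.10.

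GJB5 had 63.5, 49.4, and 70.1 CPM in control libraries A, B, and C and 49.3, 41.3, and 39.7 CPM with Arg. The Arg libraries were again all below the controls, although Arg library A and control library B were nearly equal. Its log2 fold change was -0.49 (SE 0.124, adjusted p = 0.157).

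CLDN1 had 78.8, 89.2, and 80.7 CPM in control and 92.1, 88.9, and 80.4 CPM with Arg. The groups overlapped, and the log2 fold change of 0.07 (SE 0.0792) had an adjusted p of 0.738. MARVELD1 had 59.8, 66.4, and 54.8 CPM in control and 70.0, 68.2, and 69.6 CPM with Arg. These groups were separate, with a log2 fold change of 0.20 (SE 0.0819, adjusted p = 0.327). MARVELD3 measured 38.4, 51.5, and 36.8 CPM in control and 56.8, 52.1, and 57.9 CPM with Arg. It had a log2 fold change of 0.39 (SE 0.117, adjusted p = 0.203), and its highest control was library B. Part of its reads may come from PHLPP2, which overlaps it on the opposite strand.

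CGN, the cytoplasmic scaffold cingulin, had 18.6, 16.5, and 23.4 CPM in control and 23.0, 24.5, and 29.2 CPM with Arg, which overlapped (log2 fold change 0.39, SE 0.139, adjusted p = 0.262). PANX2 had 5.03, 5.49, and 4.18 CPM in control and 6.15, 7.20, and 8.92 CPM with Arg. Its groups did not overlap, with a log2 fold change of 0.59 (SE 0.202, adjusted p = 0.240). TJP1 had 133, 147, and 138 CPM in control and 140.0, 153, and 162 CPM with Arg at 48 h, which overlapped (adjusted p = 0.496). Groups were separate for 5 members, or 18.5%, beside 17.1% of all genes.

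**Figure D3:**
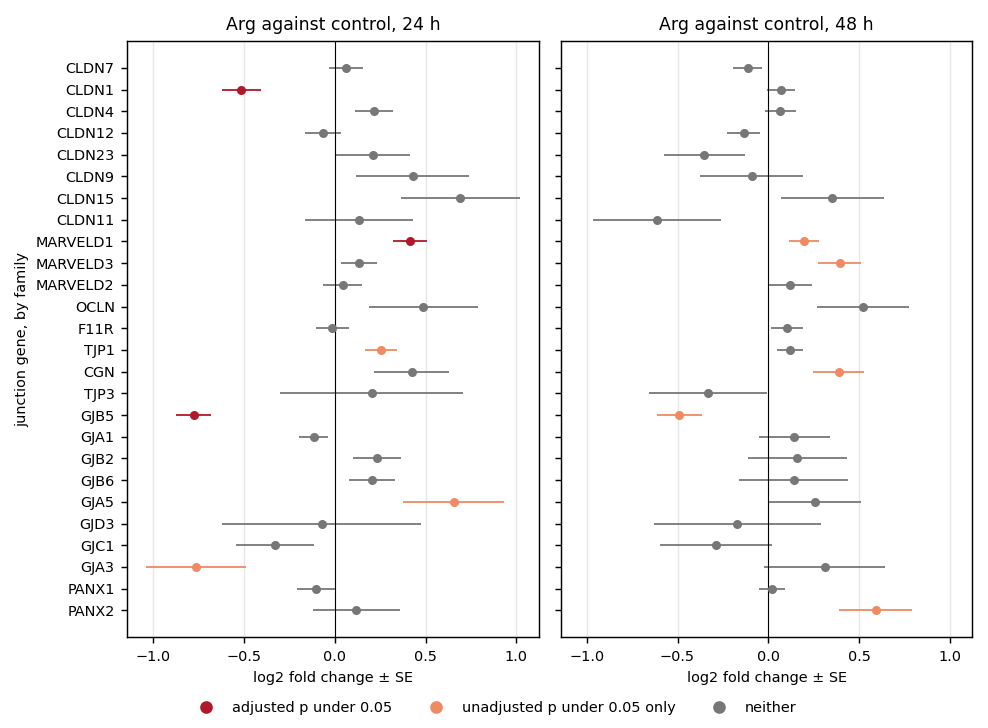
The log2 fold change of Arg against control at 24 h and at 48 h for the 26 junction genes tested at both times, ordered by family, with bars of 1 SE. Red points passed an adjusted p of 0.05 (GJB5, CLDN1, and MARVELD1 at 24 h, none at 48 h), and orange points had only an unadjusted p under 0.05.

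The 48 h result changed when control library B was left out. Then 9 of 29 members tested passed, beside 15.9% of all genes in that fit, 8 higher with Arg and GJB5 lower. GJB5 had a log2 fold change of -0.62 (SE 0.0884, adjusted p = 3.51e-05). MARVELD3 was higher by 0.56 (adjusted p = 4.08e-05), GJB2 by 0.70 (0.000446), GJA1 by 0.47 (0.00268), and GJB6 by 0.67 (0.00830). MARVELD1, OCLN, F11R, and PANX2 were higher by 0.27, 0.85, 0.22, and 0.68, with adjusted p between 0.0115 and 0.0289. CLDN1 had a log2 fold change of 0.13 and did not pass (adjusted p = 0.245). Leaving out any of the other 5 libraries gave 0 called members, beside 0.0404 to 0.0736% of all genes.

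Library B differed from the other 48 h controls in several connexins. GJA1, the most widely expressed connexin, had 183 CPM there and 104.3 and 104.04 CPM in A and C. GJB2, which with GJB6 builds gap junctions of skin and the inner ear, had 50.6 CPM in B and 22.5 and 20.6 CPM in A and C. GJB6 had 61.8 CPM in B and 29.9 and 23.6 CPM in A and C. Arg libraries at 48 h also spread widely in these genes, with 172.5, 144.6, and 115.5 CPM of GJA1 and 58.2, 38.1, and 30.8 CPM of GJB6 in A, B, and C. With all libraries, the Arg log2 fold changes at 48 h were 0.14 for GJA1, 0.16 for GJB2, and 0.14 for GJB6, with SE of 0.196 to 0.300 and adjusted p between 0.784 and 0.872. The sum of the differentiation markers, mostly KRT13 and KRT10, was also higher in library B than in the other 48 h controls. It was 3663 to 4446 CPM with Arg at 48 h, 4723 CPM in control library B, and 1985 and 2151 CPM in the other controls. Arg library C had a sum of 3663 CPM, although its GJA1 and GJB6 lay near those of control library A. Mitochondrial counts were 1.55% in B, 0.906 and 0.707% in A and C, and 1.14 to 1.31% with Arg. Their part was not tested.

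The Arg difference was also compared directly between 24 and 48 h. No member of 28 tested passed in edgeR, beside 0.0132% of all genes, and 2 members (7.14%) had an unadjusted p under 0.05, beside 6.87% of all genes. DESeq2 called 1 member, CLDN1. The Arg log2 fold change of CLDN1 was -0.52 at 24 h and 0.07 at 48 h, a difference of 0.59 (SE 0.142, unadjusted p = 0.000515, adjusted p = 0.310). For GJA3 the difference was 1.08 (SE 0.406, adjusted p = 0.609). For GJB5 it was 0.29 (SE 0.163, adjusted p = 0.781), so its change of size between times was not separated from the spread. With library B of the 48 h controls left out, 0 members passed, beside 0.297% of all genes.

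Junction genes were next compared between 24 and 48 h within each treatment. In control cells, 7 of 26 members tested (26.9%) passed, beside 19.9% of all genes. Of these, 5 rose and 2 fell, beside 9.9% of all genes that rose and 10% that fell. With Arg, 12 of 27 members (44.4%) passed, beside 28.3% of all genes, and 9 rose and 3 fell, beside 14.3% and 14% of all genes. When libraries were scaled by size only, 7 rose and 1 fell in control, and 10 rose and 1 fell with Arg. In those fits 19.7% and 27.9% of all genes passed. The median log2 fold change of all genes was then 0.07 in control and 0.06 with Arg, against 0.01 and 0.00 with TMM scaling. The 2 time courses use separate libraries.

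Tight junction genes that passed in both were CLDN4, CGN, and F11R, all higher at 48 h. CLDN4, a claudin of many epithelia, had 64.1, 70.5, and 55.7 CPM at 24 h and 90.2, 106.9, and 89.5 CPM at 48 h in control. With Arg it had 63.3, 77.3, and 80.8 CPM at 24 h and 93.0, 101.6, and 106.3 CPM at 48 h. In neither treatment did the times overlap, with log2 fold changes of 0.59 (SE 0.105, adjusted p = 0.00418) in control and 0.44 (SE 0.0891, adjusted p = 0.000961) with Arg. CGN had 13.0, 13.6, and 8.92 CPM at 24 h in control and 10.2, 19.3, and 18.3 CPM with Arg. Its 48 h values, given above, were all higher, with log2 fold changes of 0.72 (adjusted p = 0.0176) and 0.68 (adjusted p = 0.00462). F11R had 119.9, 113, and 103 CPM at 24 h and 129.6, 162, and 129.2 CPM at 48 h in control, a log2 fold change of 0.33 (SE 0.101, adjusted p = 0.0405) that fell short of the threshold without control library B at 48 h (0.21, adjusted p = 0.0975). With Arg it had 103, 108, and 122 CPM at 24 h and 156, 150.3, and 147 CPM at 48 h, a log2 fold change of 0.44 (SE 0.0756, adjusted p = 0.000205).

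Some tight junction genes passed with time in only 1 of the treatments. CLDN1 rose with Arg from 52.1 ± 3.71 to 87.1 ± 6.04 CPM (SD, n = 3), a log2 fold change of 0.74 (SE 0.0837, adjusted p = 2.25e-06), the smallest adjusted p of any member described in the 5 comparisons. In control CLDN1 had means of 74.4 ± 11.4 and 82.9 ± 5.57 CPM (log2 fold change 0.16, adjusted p = 0.334). MARVELD3 rose with Arg from 34.8, 41.1, and 41.6 CPM at 24 h to the 48 h values above, a log2 fold change of 0.51 (SE 0.0907, adjusted p = 0.000328). In control, MARVELD3 had 34.0, 37.4, and 35.6 CPM at 24 h, and its log2 fold change was 0.25 (adjusted p = 0.186). OCLN had 4.72, 2.74, and 4.08 CPM at 24 h and 6.31, 6.48, and 5.18 CPM at 48 h with Arg, a rise of 0.64 on the log2 scale (SE 0.226, adjusted p = 0.0400). In control OCLN had 2.76, 3.72, and 1.74 CPM at 24 h and 3.09, 5.86, and 3.54 CPM at 48 h, which overlapped (log2 fold change 0.60, adjusted p = 0.222). The difference between the treatments in these changes over time is the same quantity as the difference tested above, for which no member passed.

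TJP3, a scaffold at a low level, rose in control from 0.487, 1.07, and 0.521 CPM to 1.73, 1.76, and 2.25 CPM (log2 fold change 1.46, SE 0.413, adjusted p = 0.0286). With Arg, TJP3 had 0.561, 0.698, and 1.13 CPM at 24 h and 1.46, 1.78, and 1.32 CPM at 48 h (log2 fold change 0.92, adjusted p = 0.115). A pair of claudins fell with Arg over time. CLDN7 went from 57.0, 65.9, and 68.2 to 52.8, 48.7, and 56.6 CPM (log2 fold change -0.27, SE 0.0890, adjusted p = 0.0273), and in control from 62.6, 57.3, and 63.1 to 55.9, 57.4, and 57.5 CPM (log2 fold change -0.10, adjusted p = 0.430). CLDN11, better known from myelin and testis, went from 3.20, 4.83, and 3.28 to 1.46, 1.13, and 2.53 CPM with Arg (log2 fold change -1.14, SE 0.323, adjusted p = 0.0123). In control it had 5.09, 2.37, and 2.78 CPM at 24 h and 3.30, 2.28, and 2.25 CPM at 48 h, with an adjusted p of 0.442. PANX2 rose with Arg from 4.27, 6.05, and 3.71 CPM at 24 h (log2 fold change 0.67, SE 0.214, adjusted p = 0.0250), whereas in control it had 4.82, 4.51, and 3.53 CPM at 24 h and an adjusted p of 0.573. PANX1, an abundant channel protein, had 48.7, 60.8, and 63.8 CPM in control at 24 h, 55.9, 51.6, and 53.8 CPM with Arg at 24 h, 56.2, 59.9, and 56.8 CPM in control at 48 h, and 59.6, 56.6, and 59.7 CPM with Arg at 48 h. It passed in no comparison.

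The connexins moved in both directions over time. GJB5 fell in control by 0.39 on the log2 scale (SE 0.124, adjusted p = 0.0457), and it missed the threshold when libraries were scaled by size only (adjusted p = 0.0793). With Arg, where GJB5 was already low at 24 h, its log2 fold change was -0.10 (SE 0.0938, adjusted p = 0.457). GJA3 fell in control to 1.36, 1.66, and 1.45 CPM (log2 fold change -1.28, SE 0.276, adjusted p = 0.00922). With Arg it had 1.98, 2.14, and 1.44 CPM at 48 h and a log2 fold change of -0.21 (adjusted p = 0.696).

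GJB6 and GJB2 lie side by side on chromosome 13, at chr13:20221962-20232395 and chr13:20187463-20193010. GJB6 had 17.5, 21.3, and 24.4 CPM in control at 24 h and 24.8, 24.2, and 24.0 CPM with Arg at 24 h. With the 48 h values above, its log2 fold changes over time were 0.87 (SE 0.281, adjusted p = 0.0474) in control and 0.81 (SE 0.157, adjusted p = 0.000711) with Arg. Control times overlapped, at library C of each. GJB2 had 16.5, 22.1, and 22.7 CPM in control at 24 h, 24.4, 21.5, and 26.0 CPM with Arg at 24 h, and 41.5, 34.9, and 28.4 CPM with Arg at 48 h. It rose with Arg by 0.55 (SE 0.123, adjusted p = 0.00236), and its log2 fold change in control was 0.62 (SE 0.281, adjusted p = 0.144). ZMYM2, the next protein-coding gene on the GJA3 side, had log2 fold changes of -0.04 in control and 0.15 with Arg, neither past the threshold.

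GJA1 had 135, 124, and 138 CPM in control at 24 h and 122, 124, and 120.2 CPM with Arg at 24 h. Over time its log2 fold changes were -0.02 (SE 0.177) in control and 0.24 (SE 0.102, adjusted p = 0.0850) with Arg, and neither passed. GJC1, a connexin of heart and vessel walls, fell with Arg from 5.05, 4.42, and 4.46 to 2.76, 3.57, and 2.07 CPM (log2 fold change -0.73, SE 0.251, adjusted p = 0.0352). In control GJC1 had 6.66, 4.46, and 6.37 CPM at 24 h and 3.20, 2.44, and 4.61 CPM at 48 h (log2 fold change -0.77, adjusted p = 0.0629). GJA5 had 4.40, 5.39, and 3.96 CPM in control at 48 h and 6.36, 6.60, and 3.51 CPM with Arg, and CLDN9 had 2.24 ± 0.297 CPM in control at 24 h and 3.58 ± 0.710 CPM at 48 h. Neither passed over time.

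**Figure D4:**
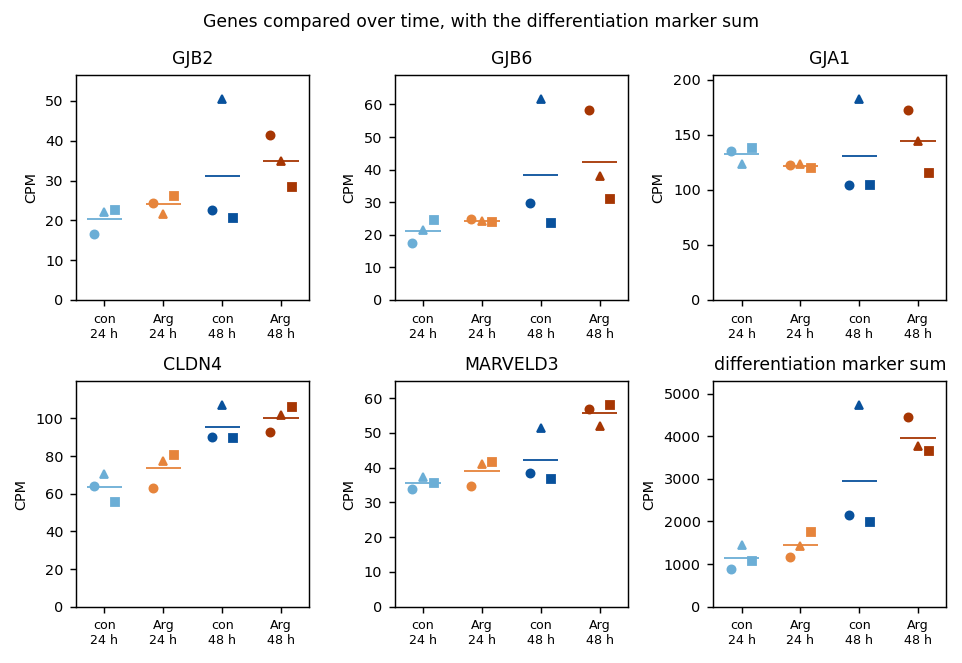
CPM of GJB2, GJB6, GJA1, CLDN4, and MARVELD3 in each library, and the summed CPM of 20 keratinocyte differentiation markers, with circles, triangles, and squares for replicates A, B, and C and a line at each group mean. Control library B at 48 h (triangle) is the highest library for GJB2, GJB6, and GJA1, at 50.6, 61.8, and 183 CPM, and for the marker sum, at 4723 CPM.

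The control time course also depended on single libraries. Without control library B at 48 h, 5 members passed, beside 16.4% of all genes. CLDN4, CGN, GJA3, and TJP3 passed in both fits, here with log2 fold changes of 0.50, 0.82, -1.37, and 1.51. GJA1 passed as lower at 48 h (log2 fold change -0.34, SE 0.0795, adjusted p = 0.0109). The calls of F11R, GJB5, and GJB6 were lost, with log2 fold changes of 0.21 (adjusted p = 0.0975), -0.26 (adjusted p = 0.0909), and 0.35 (adjusted p = 0.124), and that of GJB2 was 0.08 (adjusted p = 0.752). F11R passed in 1 of the 6 fits that left out a library, and GJB5 and GJB6 each in 2. Without control library A at 24 h, CLDN4 alone passed, beside 5.59% of all genes, against 19.9% with every library. Without control library C at 24 h, 2 passed, CLDN4 and GJA3, beside 6.7% of all genes. Without control library A at 48 h, 4 passed, beside 12.4% of all genes. With Arg, leaving out 1 library gave 8 to 12 called members, beside 19.8 to 24.8% of all genes. CLDN1, CLDN4, CGN, F11R, MARVELD3, GJB2, and GJB6 passed in each of those 6 fits.

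Several markers of keratinocyte differentiation were also higher at 48 h, and a few were lower. In control 6 of the 17 tested rose and 1 fell, beside 9.9% and 10% of all genes. KRT4 and KRT13 were higher by 1.76 and 1.48 on the log2 scale, and SPRR1B was lower by 0.34. With Arg 9 of 18 rose and 4 fell, beside 14.3% and 14% of all genes. Those that fell with Arg were SPRR1A, SPRR1B, SPRR3, and CALML3. The 20 markers, mostly KRT13 and KRT10, summed to 885 to 1748 CPM over the 24 h libraries and 1985 to 4723 CPM over the 48 h libraries. The 7 fibroblast markers summed to 30.2 to 54.4 CPM at 24 h and 72.7 to 102.5 CPM at 48 h, with COL1A2 at 0 in 10 libraries. The 5 endothelial markers summed to at most 3.17 CPM at 24 h and to 4.32 to 6.55 CPM at 48 h, with CDH5 at 0 in 11 libraries. Their part in the changes over time was not tested.

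Expressed as a share of all claudin transcripts per length, CLDN1 made up 25.4, 30.6, and 33.2% in control at 24 h and 22.5, 20.4, and 21.6% with Arg. At 48 h the shares were 28.7 to 29.3% in control and 27.7 to 32.97% with Arg. CLDN7 was the leading claudin at 24 h, with 33.4 to 39.4% in the 6 libraries, and took 25.7 to 30.5% at 48 h. The summed claudin level was 60.2 to 71.3 CPM per kb at 24 h and 75.0 to 83.0 CPM per kb at 48 h.

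**Figure D5:**
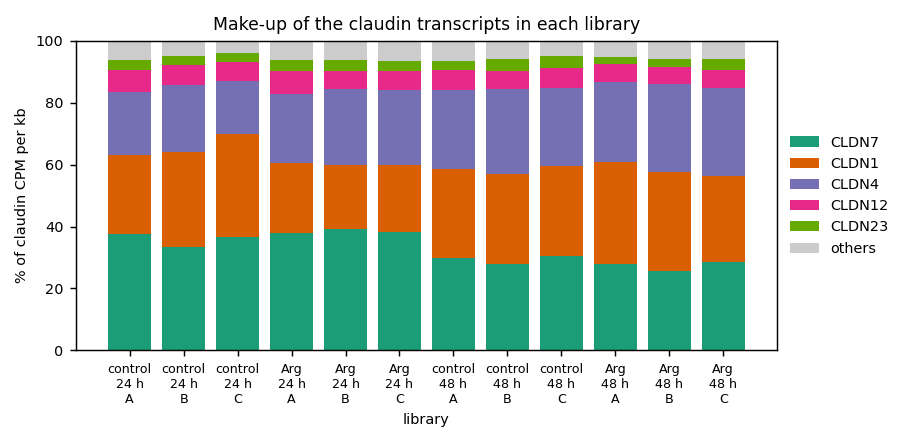
Share in percent of the claudin CPM per kb taken by CLDN7, CLDN1, CLDN4, CLDN12, and CLDN23 in every library, with all remaining claudins in gray. CLDN1 takes 20.4 to 22.5% in the Arg libraries at 24 h and 25.4 to 33.2% in the control libraries at 24 h, and the shares at 48 h are 28.7 to 29.3% in control and 27.7 to 32.97% with Arg.

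By family, the 9 claudins tested at 24 h held 1 lower and no higher call with Arg, and the 8 connexins held 1 lower and no higher call. Of all genes, 3.84% passed as lower and 2.79% as higher. All 4 MARVEL genes and all 3 scaffold genes had positive log2 fold changes at 24 h, with medians of 0.27 and 0.25, and 1 of these 7 passed. At 48 h the medians were 0.29 for MARVEL genes and 0.12 for scaffolds, without a call. Over time in control, the scaffolds had a median of 0.72 and 2 of 3 rose, whereas the connexins had a median of -0.01 with 1 higher and 2 lower calls. Of all genes, 9.9% rose and 10% fell in that comparison.

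The other tested members did not pass in any comparison and are given by range. CLDN12 lay between 27.2 and 32.3 CPM in the 12 libraries, and it shares its strand with the overlapping genes GTPBP10 and CDK14. MARVELD2 lay between 20.6 and 28.5 CPM. CLDN23 lay between 3.86 and 6.84 CPM, CLDN9 between 1.91 and 4.35 CPM, and CLDN15 between 1.04 and 3.80 CPM. GJD3, CLDN8, and CLDN16 stayed at or below 1.92 CPM in each library.

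Genes that act on junctions were counted from 3 further lists. Of 27 tested partners of tight junctions, such as scaffolds and polarity proteins, 1 rose with Arg at 24 h, beside 2.79% of all genes. This was the angiomotin family gene AMOTL2 (log2 fold change 0.40, SE 0.0846, adjusted p = 0.00798). It had 141, 163, and 151 CPM in control and 183, 212.5, and 206 CPM with Arg. Over time, 6 partners rose and 2 fell in control, beside 9.9% and 10% of all genes, and 9 rose and 1 fell with Arg, beside 14.3% and 14% of all genes. PLEKHA7, an adaptor of the adherens junction, rose by 0.74 (adjusted p = 0.00186) and 0.60 (adjusted p = 5.63e-05), and the CGN relative CGNL1 by 1.19 (adjusted p = 0.0142) and 0.99 (adjusted p = 0.0183). CXADR, an adhesion receptor of tight junctions, rose with Arg by 0.53 (adjusted p = 0.000426).

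Of 15 tested regulators of junction gene transcription, 1 rose and 2 fell with Arg at 24 h, beside 2.79% and 3.84% of all genes. SNAI2, a repressor of epithelial junction genes, had 127, 114, and 148 CPM in control and 96.1, 90.1, and 90.8 CPM with Arg (log2 fold change -0.49, SE 0.0952, adjusted p = 0.00471). KLF4, a factor of barrier formation, fell by 0.45 on the log2 scale (SE 0.0940, adjusted p = 0.00774). GRHL2, an activator of epithelial junction genes, rose by 0.35 (SE 0.0860, adjusted p = 0.0205). Over time, 6 of 16 rose and 1 fell in control, and 8 rose and 1 fell with Arg, where 19.9% and 28.3% of all genes passed in either direction. GRHL3, a related activator in the outer layers of epithelium, rose by 1.61 (SE 0.186, adjusted p = 0.000974) and 1.10 (SE 0.139, adjusted p = 8.34e-06), and SNAI2 fell by 0.56 (adjusted p = 0.00439) and 0.42 (adjusted p = 0.000323). At 48 h, none of the 3 lists held a call between Arg and control in edgeR, beside 0.117% of all genes. In the order given here, 2 of 27, 2 of 16, and 1 of 15 tested had an unadjusted p under 0.05, beside 13.4% of all genes.

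The third list held 15 genes for partners and turnover of connexins, all tested. CAV1, the main protein of caveolae, rose with Arg at 24 h from 1506, 1417, and 1639 to 2199, 1945, and 1807 CPM (log2 fold change 0.38, SE 0.0848, adjusted p = 0.0113). Over time CAV1 fell by 0.49 in control (adjusted p = 0.00207) and by 0.87 with Arg (adjusted p = 3.64e-08). CDH1, the adhesion molecule of epithelial adherens junctions, rose by 0.28 (adjusted p = 0.0252) and 0.26 (adjusted p = 0.00329). In all, 3 rose and 3 fell in control over time, and 2 rose and 3 fell with Arg, beside the same 19.9% and 28.3% of all genes that passed.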

How the data were processed

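RNA-seq gene counts of the 12 libraries were used. The authors made these counts, per the labels, with NEBNext libraries and paired-end reads, and the submitters' processing notes name fastp, STAR, and featureCounts with GRCh38 and hg38. The deposited counts were raw whole numbers per gene with coordinates and exonic lengths. Tool versions, the annotation release, and the strand setting are not given in the sources used here. No column was left out.

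Libraries were grouped by their labels. Each comparison of 2 groups was fitted with edgeR 4.0.16 in R 4.3.3 (quasi-likelihood test after TMM scaling and filterByExpr), and the Arg difference between times was fitted over all 12 libraries. The p-values were adjusted over all genes tested, at 0.05. An SE is the log2 fold change divided by the root of F. Replicates were separate wells of a line, so p-values measure only the spread between wells. The smallest two-sided exact permutation p for 3 against 3 is 0.1. CPM used a TMM scale over all 12 libraries. The fits were tested on simulated data before use.

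Members and lists were chosen with earlier results of these data known. All genes entered the fits, and 5 members are not reported here. Genes were named if they passed in any comparison, had an unadjusted p under 0.05 for Arg, or were among the 10 highest per length, with up to 5 from each further list. Same-lettered libraries deviated together at most weakly (correlations from -0.115 to 0.225, positive for every letter only over time in control), so letters were treated as names. Alternatives were DESeq2 1.42.0, its size factors, library size only, no filter, at least 10 counts in every library, a single model, a replicate block, and leaving out each library.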

Additional observations from a re-analysis of the deposited data

How the results depend on the processing

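The 3 calls at 24 h were the same in all 7 alternatives that kept every library, and no direction reversed under any alternative among the members with an unadjusted p under 0.05 in a comparison. Without control library B at 48 h, members above that p did change direction, such as GJB2 and GJB6 in the difference between times (-0.07 and -0.06 to 0.47 and 0.46). At 48 h the 0 calls between Arg and control became 1 with DESeq2 and 1 with the replicate block, in both cases GJB5, and 2 without the filter on low counts, GJB5 and MARVELD3. Over all genes, the 17 calls at 48 h became 184 with DESeq2, 184 with the replicate block, 573 without the filter, and 41 in a single model of 12 libraries, and the 2 calls for the difference between times became 23 with DESeq2 and 88 without the filter. For the difference between times, the 0 member calls became 1, CLDN1, with DESeq2 and also without the filter, and the 2 members with an unadjusted p under 0.05 became 5 without the filter, and at 24 h the 6 such members became 10. Libraries did not pair clearly by letter, although over time in control all same-letter correlations were positive (0.0692 to 0.225). The library best matched in the other group had the same letter for 1 of 6 libraries at 24 h, 3 of 6 at 48 h, 4 of 6 over time in control, and 0 of 6 over time with Arg. With the replicate block, members called over time in control went from 7 to 10, and calls over all genes from 2882 to 4044. Without the filter, the members called there went to 11, beside 12.4% of all genes. Leaving out 1 library moved the calls between 1 and 4 at 24 h, 0 and 9 at 48 h, 1 and 8 over time in control, and 8 and 12 over time with Arg. For unadjusted p under 0.05 those ranges were 4 to 10, 3 to 14, 9 to 14, and 11 to 15 members, and for the difference between times 3 to 6. The share of all genes with an adjusted p under 0.05 moved as well. It ran from 2.45 to 10.4% at 24 h and from 0.0404 to 15.9% at 48 h. Over time it ran from 5.59 to 22.2% in control and from 19.8 to 24.8% with Arg. The cause of these shifts was not tested. With 3 wells of 1 line per group, the SE of a low gene such as TJP3 was 0.326 to 0.597 over the 5 comparisons, against 0.0938 to 0.163 for a gene such as GJB5.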
